A study of Mus musculus with 24 samples.

Results

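The genes described here encode the nuclear subunits of the 5 complexes of oxidative phosphorylation. They were chosen by name alone, as the array genes whose symbol starts with Ndufa, Ndufb, Ndufc, Ndufs or Ndufv (complex I), Sdh (complex II), Uqcr (complex III), Cox4 to Cox8 (complex IV) or Atp5 (complex V) followed by a subunit name. Genes named as assembly factors and pseudogenes were left out. Cox7a2l, Ndufa4l2 and Atp5s were kept by name, although a stricter list of subunits drops them. Of 24297 named genes on the array, 84 met the rule. Of these, 79 were measured, that is, detected well above background in 4 or more arrays of some group. The measured members were 37 genes of complex I, 4 of complex II, 8 of complex III, 15 of complex IV and 15 of complex V. The other 5 did not pass: Cox7b2 was well above background on 0 arrays, Cox8c and Ndufa4l2 on 1 each, Atp5s on 3 and Cox8b on 7. Of the 79, 77 were well above background on all 24 arrays.

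RNA came from whole blood of 24 male 129S/J mice, collected by cardiac puncture 24 h after X-rays or a sham exposure, 1 mouse per array. Wild-type mice received 0 Gy (n = 5), 6 Gy (n = 5) or 8.8 Gy (n = 4), and mice lacking Parp1, which encodes a poly(ADP-ribose) polymerase recruited to broken DNA, received 0 Gy (n = 5) or 6 Gy (n = 5). The labels give 8.8 Gy in wild-type mice and 6 Gy in Parp1-/- mice as equally lethal doses, so the design asks how the blood transcriptome responds at equal and at equally lethal dose. The labels give no age and do not say which part of Parp1 was deleted or in which cells.

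Oxidative phosphorylation passes electrons from NADH and succinate along a chain in the inner mitochondrial membrane and uses the energy to make ATP. Complex I oxidises NADH, complex II (succinate dehydrogenase) oxidises succinate, complex III hands electrons to cytochrome c, complex IV (cytochrome c oxidase) reduces oxygen, and complex V is the ATP synthase. Mature red cells have no mitochondria, but reticulocytes still carry some together with leftover mRNA, and white cells and platelets have their own, so blood holds several sources of these transcripts. Several subunits of complex IV exist in a widely expressed form and a form of heart and skeletal muscle.

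Many nuclear genes of this pathway carry sites for the factors NRF1, GABP (an ETS factor) and YY1 near their start. RefSeq promoter windows (GRCm38.p6, 250 bases before to 50 after the start) were matched by symbol for 66 of the 79 measured members. The NRF1 core GCGCANGCGC was present, on either strand, in 18 of 71 member windows (25.4%) and in 1512 of 32851 windows of all genes (4.6%). The ETS core CCGGAAG was present in 16 of 71 (22.5%) against 8.86% of all windows. The YY1 core AAGATGGC was present in 10 of 71 (14.1%) against 2.75%. Matches of different patterns overlapped in 0 of the 71 windows, and a match describes the sequence only. The 250 bases before the start are shown for 5 members on which the results below turn, with NRF1 and ETS matches in capitals.
Sdha, chr13:74350241-74350490, minus strand: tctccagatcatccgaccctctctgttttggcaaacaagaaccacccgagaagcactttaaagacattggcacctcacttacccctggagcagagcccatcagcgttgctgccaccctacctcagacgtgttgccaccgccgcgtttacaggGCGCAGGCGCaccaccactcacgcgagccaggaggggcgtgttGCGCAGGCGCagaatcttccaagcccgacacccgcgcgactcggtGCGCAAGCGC
Cox6a1, chr5:115348959-115349208, minus strand: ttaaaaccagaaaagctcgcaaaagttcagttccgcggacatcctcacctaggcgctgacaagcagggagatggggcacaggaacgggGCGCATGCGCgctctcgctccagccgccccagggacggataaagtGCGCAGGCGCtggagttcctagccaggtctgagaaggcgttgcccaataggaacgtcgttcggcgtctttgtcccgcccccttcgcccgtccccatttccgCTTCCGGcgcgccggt
Atp5h, chr11:115419920-115420169, minus strand: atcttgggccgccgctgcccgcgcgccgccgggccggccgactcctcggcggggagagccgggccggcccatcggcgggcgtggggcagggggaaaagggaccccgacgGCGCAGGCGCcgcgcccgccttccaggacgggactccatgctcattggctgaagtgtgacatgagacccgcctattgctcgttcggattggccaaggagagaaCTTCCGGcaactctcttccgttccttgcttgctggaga
Cox7a2, chr9:79759854-79760103, minus strand: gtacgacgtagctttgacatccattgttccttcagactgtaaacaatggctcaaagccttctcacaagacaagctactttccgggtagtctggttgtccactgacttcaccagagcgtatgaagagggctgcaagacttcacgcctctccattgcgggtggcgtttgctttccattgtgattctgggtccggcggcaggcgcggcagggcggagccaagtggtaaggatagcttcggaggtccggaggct
Ndufs4, chr13:114388095-114388344, minus strand: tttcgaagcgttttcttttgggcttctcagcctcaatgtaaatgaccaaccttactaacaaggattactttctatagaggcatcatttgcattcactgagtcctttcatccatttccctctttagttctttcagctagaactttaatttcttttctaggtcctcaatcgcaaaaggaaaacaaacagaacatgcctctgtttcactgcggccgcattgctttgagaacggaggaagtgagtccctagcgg
Sdha held 3 NRF1 matches, Cox6a1 and Atp5h held both kinds, and Cox7a2 held none. Ndufs4 held none in the bases shown and a YY1 match after its start. Of the 16 members called in any response to radiation, 12 had a window. Of these 12, 5 held the NRF1 core, 5 the ETS core and 1 the YY1 core, beside 17, 16 and 10 of the 66 matched members. At least 1 pattern was held by 8 of the 12, a count for which no share over all genes was taken. These counts were not tested.

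Some facts of the arrays bear on all results. Levels are log2 processed signal minus the array's 75th percentile, and 36.6% to 57.8% of probes per array were well above background. Parp1 was lower in the knockout 0 Gy than in the wild-type 0 Gy arrays by 2.38 on the log2 scale (SE 0.51, limma adjusted p = 0.0312). Sham wild-type arrays lay at -0.94 to -0.35, those given 6 Gy at -2.33 to -1.27, and sham knockout arrays at -3.82 to -2.29. It was -1.25, -1.56, -1.59 and -3.95 on wild-type 8.8 Gy replicates 1 to 4, and -1.67, -3.45, -5.01, -3.82 and -4.67 on knockout 6 Gy replicates 1 to 5. Wild-type 6 Gy replicates 1 and 2 and 8.8 Gy replicate 4 did not have it well above background, and 6 Gy replicate 2 lay below knockout 0 Gy replicate 1 (-2.29). By level, Parp1 goes against the label most clearly on 2 arrays. One labelled as wild type, 8.8 Gy replicate 4, lay below every sham knockout array. The other, knockout 6 Gy replicate 1, had it detected, above all other arrays labelled knockout. Knockout 6 Gy replicate 1 was also nearly equal to wild-type 8.8 Gy replicate 2: their log2 values over 18011 probes differed with an SD of 0.267, against a next smallest of 0.422 and a median of 1.14 over the 276 pairs of arrays. Over the 79 members these arrays differed by a median of 0.068 and at most 0.33. Knockout 6 Gy replicate 1 and wild-type 8.8 Gy replicates 2 and 4 were kept under their labels. Every direction drawn for wild type at 8.8 Gy and for irradiated knockout mice thus rests in part on them, and results without them are given below. There were 10 slides and 4 scan days: wild-type 0 Gy arrays fell on day 4, irradiated wild-type arrays on day 3 and knockout 0 Gy arrays on days 1 and 2, so that in wild type scan day and dose cannot be told apart except through knockout arrays. Wild-type and knockout 0 Gy arrays also shared no scan day and no slide. Genotype at 0 Gy thus cannot be told apart from either except through irradiated knockout arrays.

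The label whole blood was checked against markers. Erythroid, platelet, neutrophil and T-cell markers were well above background on most arrays (20 of 27, 18 of 19, 15 of 19 and 16 of 18 genes on all 24), whereas 5 of 14 B-cell markers were. Liver and heart transcripts were also present. All 23 hepatocyte markers (albumin, apolipoproteins, fibrinogen chains and others) were well above background on 11 of the 24 arrays, as few as 6 were on others, and their mean level ran from -2.48 to 7.10. Heart muscle markers were detected on 3 to 18 of 19 genes per array. Their mean level was highest on knockout 6 Gy replicate 3 (2.55), wild-type 6 Gy replicate 1 (0.81) and wild-type 8.8 Gy replicates 3 (-0.31) and 4 (-0.34). It lay between -3.52 and -1.57 on the other 20. Of the 19 genes, Myl7 was detected on 0 arrays, Nppa on 11, and Myl3 and Myl4 on all 24. Every group held arrays with high and with low hepatocyte markers.

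After irradiation most oxidative phosphorylation subunits were lower in all 3 responses, by a modest amount, and few single genes passed the test. In wild-type mice at 6 Gy the median log2 difference of the 79 members was -0.40, against 0.04 over the 13038 genes tested, and 69 of 79 members (87.3%) were below 0 against 47.8% of all genes. At 8.8 Gy the median was -0.48, with 70 of 79 members below 0. In Parp1-/- mice at 6 Gy the median was -0.35, with 61 of 79 below 0 against 53.6% of all genes. The members share arrays and are not independent, so these shares are descriptions. Centring each array on its median instead gave member medians of -1.18, -0.79 and -0.31 beside -0.74, -0.28 and -0.03 over all genes, and normexp background correction turned the knockout median to 0.17. The authors' deposited table, with 72 members, gave -0.46, -0.40 and -0.09 beside -0.01, 0.23 and 0.06 over all genes. With 1 array left out at a time the median ran from -0.65 (without wild-type 6 Gy replicate 5) to -0.24 (without wild-type 0 Gy replicate 1) in wild type at 6 Gy. It ran from -0.66 (without wild-type 8.8 Gy replicate 3) to -0.29 (without wild-type 8.8 Gy replicate 1) at 8.8 Gy, and from -0.59 (without knockout 6 Gy replicate 3) to -0.21 (without knockout 6 Gy replicate 5) in the knockout. In bulk RNA, fewer cells of a type and less RNA per cell cannot be told apart.

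At 6 Gy in wild type, 11 of 79 members passed an adjusted p under 0.05, all of them lower (13.9%), while 26.4% of all genes tested passed in either direction and 10.9% were called lower. At 8.8 Gy 5 members passed, all lower (6.33%), against 16.1% of all genes in either direction and 9.04% lower. In Parp1-/- mice 13 were called lower (16.5%) and 1 higher, against 22.8% of all genes in either direction, 10.5% lower and 12.4% higher. Of all genes 15.5% were called higher in wild type at 6 Gy and 7.05% at 8.8 Gy, and of the members 0. In either direction the members' share of called genes was below that of all genes in each response, while their share called lower was above it at 6 Gy in both genotypes and below it at 8.8 Gy; these shares were not tested. The counts also moved with the processing: normexp background gave 4, 46 and 4 called members in the 3 responses (11.2%, 37.4% and 23% of all genes) and median centring gave 35, 11 and 12 (46.8%, 19.2% and 21.3% of all genes). The 8.8 Gy count rested on single arrays: it was 0 without wild-type 0 Gy replicate 5 or wild-type 8.8 Gy replicate 2, 1 without wild-type 8.8 Gy replicate 4 and 10 without knockout 0 Gy replicate 3, which enters through the shared variance. The 6 Gy count was 7 without wild-type 0 Gy replicate 2 or 5 or wild-type 6 Gy replicate 1 or 3, and the knockout count 9 without knockout 0 Gy replicate 3. The 4 genes Atp5a1, Cox6c, Cox7a2 and Ndufb11 were called lower in all 3 responses. At 8.8 Gy, however, Cox6c kept its call in 4 of 24 fits that left out 1 array (adjusted p up to 0.154) and Atp5a1 in 7 of 24 (up to 0.133), against 22 of 24 for Cox7a2 and 21 of 24 for Ndufb11. Of all members, 9 were called lower both in wild type and in Parp1-/- mice at 6 Gy. Both wild-type comparisons share the 0 Gy arrays.

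**Figure D1:**
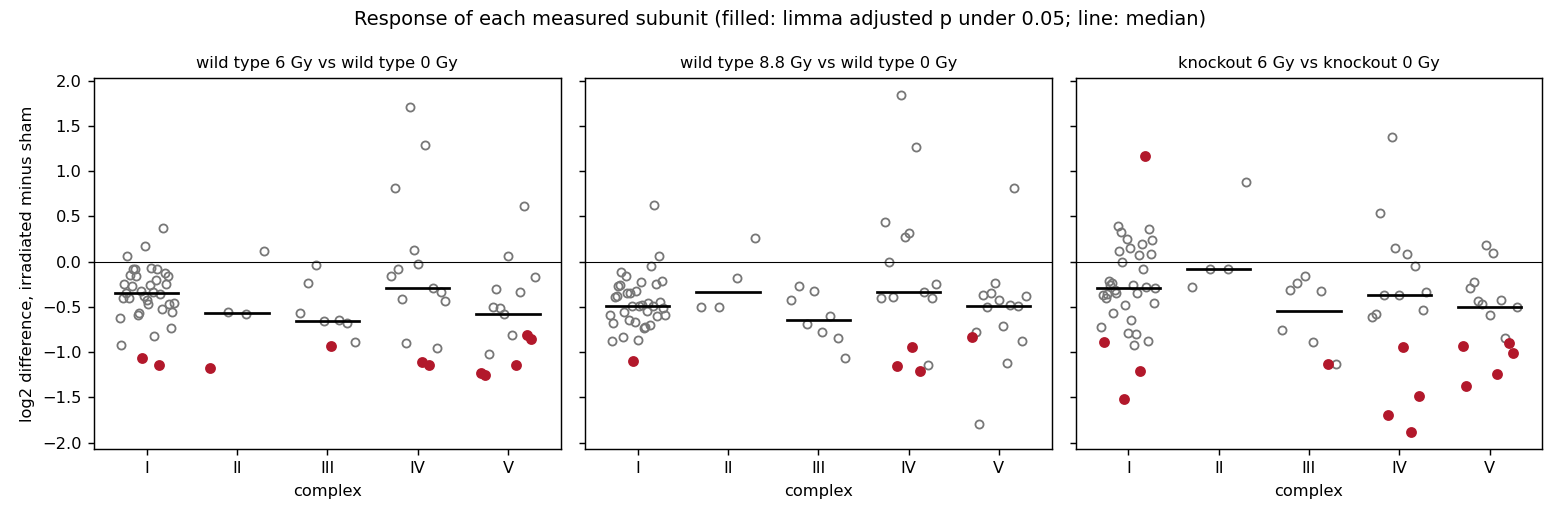
Log2 difference between irradiated and sham arrays for each measured subunit (points), by complex, in wild type at 6 Gy, wild type at 8.8 Gy and Parp1-/- at 6 Gy; filled points passed an adjusted p under 0.05 and lines are medians. Medians of all complexes lie below 0, at -0.65 for complex III in both wild-type responses, and the single filled point above 0 is Ndufs4 in the knockout.

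Complex I, the NADH dehydrogenase, had 37 measured members and few called ones: 2 in wild type at 6 Gy, 1 at 8.8 Gy and 4 in Parp1-/- mice, where 1 of the 4 rose. Its median log2 difference was -0.34, -0.49 and -0.29 in these 3 responses. Ndufb11, an accessory subunit encoded on the X chromosome, was called in each. Its level was 5.89, 5.93, 5.50, 6.15 and 6.35 in wild-type 0 Gy, 4.95, 4.49, 4.59, 4.91 and 5.55 in wild-type 6 Gy, and 4.91, 4.80, 5.22 and 4.53 in wild-type 8.8 Gy arrays. Only replicate 5 at 6 Gy, at 5.55, lay above the lowest sham array, and no 8.8 Gy array did. In Parp1-/- mice it was 6.73, 5.66, 7.76, 6.48 and 6.39 at 0 Gy and 4.70, 5.02, 5.85, 5.13 and 4.72 at 6 Gy, so the groups overlapped only at 5.66 and 5.85. Ndufb11 fell by 1.06 (SE 0.31, adjusted p = 0.0156) at 6 Gy and by 1.1 (SE 0.33, adjusted p = 0.0248) at 8.8 Gy in wild type, and by 1.52 (SE 0.31, adjusted p = 0.00133) in Parp1-/- mice, all in log2. It has 3 probes, which did not move alike: the second gave -1.55 in the knockout (adjusted p = 0.00123) and the third -0.05 (adjusted p = 0.880).

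Ndufs1, the largest core subunit of complex I and part of its NADH-oxidising arm, was 3.11, 2.66, 2.56, 2.42 and 2.99 in wild-type 0 Gy and 2.03, 1.11, 1.20, 1.35 and 2.32 in wild-type 6 Gy arrays. The groups did not overlap, and the difference was -1.15 (SE 0.32, adjusted p = 0.0129). In Parp1-/- mice Ndufs1 was 3.04, 2.33, 4.29, 3.47 and 3.0 at 0 Gy and 1.87, 1.84, 2.79, 2.01 and 1.60 at 6 Gy, a difference of -1.21 (SE 0.32, adjusted p = 0.00862). At 8.8 Gy in wild type it was 1.61 to 2.49 and the difference of -0.70 did not pass (adjusted p = 0.161). Ndufa11, an accessory membrane subunit, was called lower in the knockout (-0.89, SE 0.31, adjusted p = 0.0445). Its call was kept in 12 of 24 fits that left out 1 array (adjusted p up to 0.137) and in 5 of 15 other settings. Its wild-type 8.8 Gy group has 3 arrays, since the spot of replicate 1 carried an outlier mark. Ndufv1, a core subunit that holds the NADH site, ran from 1.98 to 5.15 over the 24 arrays. With the scaling used here and without covariates it was not called in any comparison.

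Ndufs4, an accessory subunit that stabilises the NADH-oxidising arm, was the only member called higher by its brightest probe in the fit without covariates. In Parp1-/- mice its level was 3.90, 2.96, 2.92, 3.15 and 2.84 at 0 Gy and 4.1, 4.35, 4.56, 3.98 and 4.60 at 6 Gy. Every irradiated knockout array lay above every sham array, and the rise was 1.17 (2.24-fold, SE 0.24, adjusted p = 0.00126). In wild type it was 3.81, 3.02, 3.12, 3.80 and 3.60 at 0 Gy, 3.83, 4.16, 4.09, 3.49 and 3.64 at 6 Gy and 4.51, 4.17, 4.02 and 3.70 at 8.8 Gy. These groups overlapped, with differences of 0.37 (SE 0.24, adjusted p = 0.240) and 0.63 (SE 0.25, adjusted p = 0.0867). The difference between the knockout and wild-type responses at 6 Gy was 0.79 (SE 0.33, adjusted p = 0.134) and did not pass. The probe lies at chr13:115078980-115079039 in mm9, the build of the array files.

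Complex II has 4 subunits, all measured, of which 1 was called lower in wild type at 6 Gy and 0 in the other responses. Its median log2 difference was -0.57, -0.34 and -0.08 in the 3 responses. Sdha, the flavoprotein that binds succinate, was lower in wild type at 6 Gy: 3.33, 2.87, 2.82, 2.99 and 2.98 in sham arrays against 2.20, 0.88, 1.68, 2.01 and 2.33. The groups did not overlap and the fall was 1.18 (SE 0.24, adjusted p = 0.00228), the smallest p among the members in that response. At 8.8 Gy it was 2.23, 2.33, 2.60 and 2.85, which overlapped the sham arrays (-0.50, adjusted p = 0.199). Among Parp1-/- arrays Sdha was 3.29, 2.77, 2.54, 2.76 and 2.61 at 0 Gy and 2.40, 2.25, 3.01, 2.71 and 2.19 at 6 Gy, a difference of -0.28 (adjusted p = 0.427). The test of the difference between the 6 Gy responses gave 0.90 (SE 0.35, adjusted p = 0.106), so it did not pass although Sdha had the smallest p of the members there. Sdhb, the iron-sulfur subunit, differed by -0.56 (SE 0.48, adjusted p = 0.407) in wild type at 6 Gy. Sdhd, a membrane anchor of the complex, lay above 0 in each response without passing, at 0.12 (SE 0.40, adjusted p = 0.845) and 0.27 (SE 0.42, adjusted p = 0.706) in wild type and 0.88 (SE 0.40, adjusted p = 0.113) in the knockout. Sdhd was 4.05, 2.51, 2.26, 2.27 and 2.43 in knockout 0 Gy and 3.37, 3.32, 4.36, 3.41 and 3.47 in knockout 6 Gy arrays, so that only sham replicate 1 reached the irradiated range. The mean of the 4 subunits was 2.94 ± 0.59 (SD, n = 5) in sham and 3.05 ± 0.54 (n = 5) in irradiated knockout arrays.

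Complex III had 8 measured members, all below 0 in each of the 3 responses, with medians of -0.65, -0.65 and -0.54. Uqcrc2, a core protein of the complex, was 4.22, 3.41, 3.40, 3.27 and 3.73 in wild-type 0 Gy and 2.78, 1.97, 2.24, 2.79 and 3.62 in wild-type 6 Gy arrays. The groups overlapped through replicate 5 at 3.62, and the fall was 0.93 (SE 0.33, adjusted p = 0.0426). The call of Uqcrc2 was kept in 16 of 24 fits that left out 1 array (adjusted p up to 0.127). In the knockout its difference was -0.89 (adjusted p = 0.0575). Uqcrh, the hinge protein that links to cytochrome c1, was called in Parp1-/- mice: 7.35, 6.51, 8.61, 7.56 and 7.28 at 0 Gy against 6.31, 6.16, 6.82, 5.94 and 6.42 at 6 Gy, with a fall of 1.13 (SE 0.30, adjusted p = 0.00862). Uqcrc1 and the Rieske iron-sulfur protein Uqcrfs1 were not called in any comparison with the scaling used here and without covariates.

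Complex IV held the largest fall of a called member, and 2 of its members were high on the arrays with the highest heart markers. Called members were 2, 3 and 4 in the 3 responses, all lower, and the medians were -0.29, -0.34 and -0.37. Cox7a2, the widely expressed form of subunit VIIa, was 5.86, 5.01, 7.12, 5.92 and 5.70 in knockout 0 Gy and 3.63, 3.85, 4.59, 4.03 and 4.11 in knockout 6 Gy arrays. The groups did not overlap, and the fall of 1.88 (SE 0.32, adjusted p = 0.000280) was the largest of any called member, 3.69-fold. In wild type it was 4.51, 5.19, 4.48, 5.28 and 5.65 at 0 Gy, 4.22, 3.62, 3.40, 3.64 and 4.52 at 6 Gy and 4.06, 3.67, 3.67 and 3.86 at 8.8 Gy. The 8.8 Gy arrays all lay below the sham arrays, and the 6 Gy arrays overlapped them. The falls were 1.14 (SE 0.32, adjusted p = 0.0129) and 1.21 (SE 0.34, adjusted p = 0.0178). The probe lies at chr9:79603215-79603274 (mm9).

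Cox6a1, the widely expressed form of subunit VIa, was 8.86, 8.05, 10.68, 9.40 and 9.14 in knockout 0 Gy and 7.16, 7.75, 7.92, 7.60 and 7.23 in knockout 6 Gy arrays, without overlap (-1.70, SE 0.35, adjusted p = 0.00163). In wild type it was 8.34, 8.48, 8.0, 8.58 and 8.76 at 0 Gy and 7.39, 7.31, 7.63 and 6.76 at 8.8 Gy, again without overlap (-1.16, SE 0.38, adjusted p = 0.0389). At 6 Gy it was 8.06, 6.97, 7.10, 7.25 and 8.29 and the difference of -0.90 missed the threshold (adjusted p = 0.0638). Cox6c fell in all 3 responses, by 1.1 (SE 0.30, adjusted p = 0.0122) and 0.94 (SE 0.32, adjusted p = 0.0488) in wild type and by 0.94 (SE 0.30, adjusted p = 0.0281) in the knockout. Cox7b fell by 1.49 (SE 0.40, adjusted p = 0.0101) in the knockout. Cox4i1 and Cox5a, both of which contact the catalytic core, were not called without covariates, with differences between -0.62 and 0.54 in the 3 responses.

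**Figure D2:**
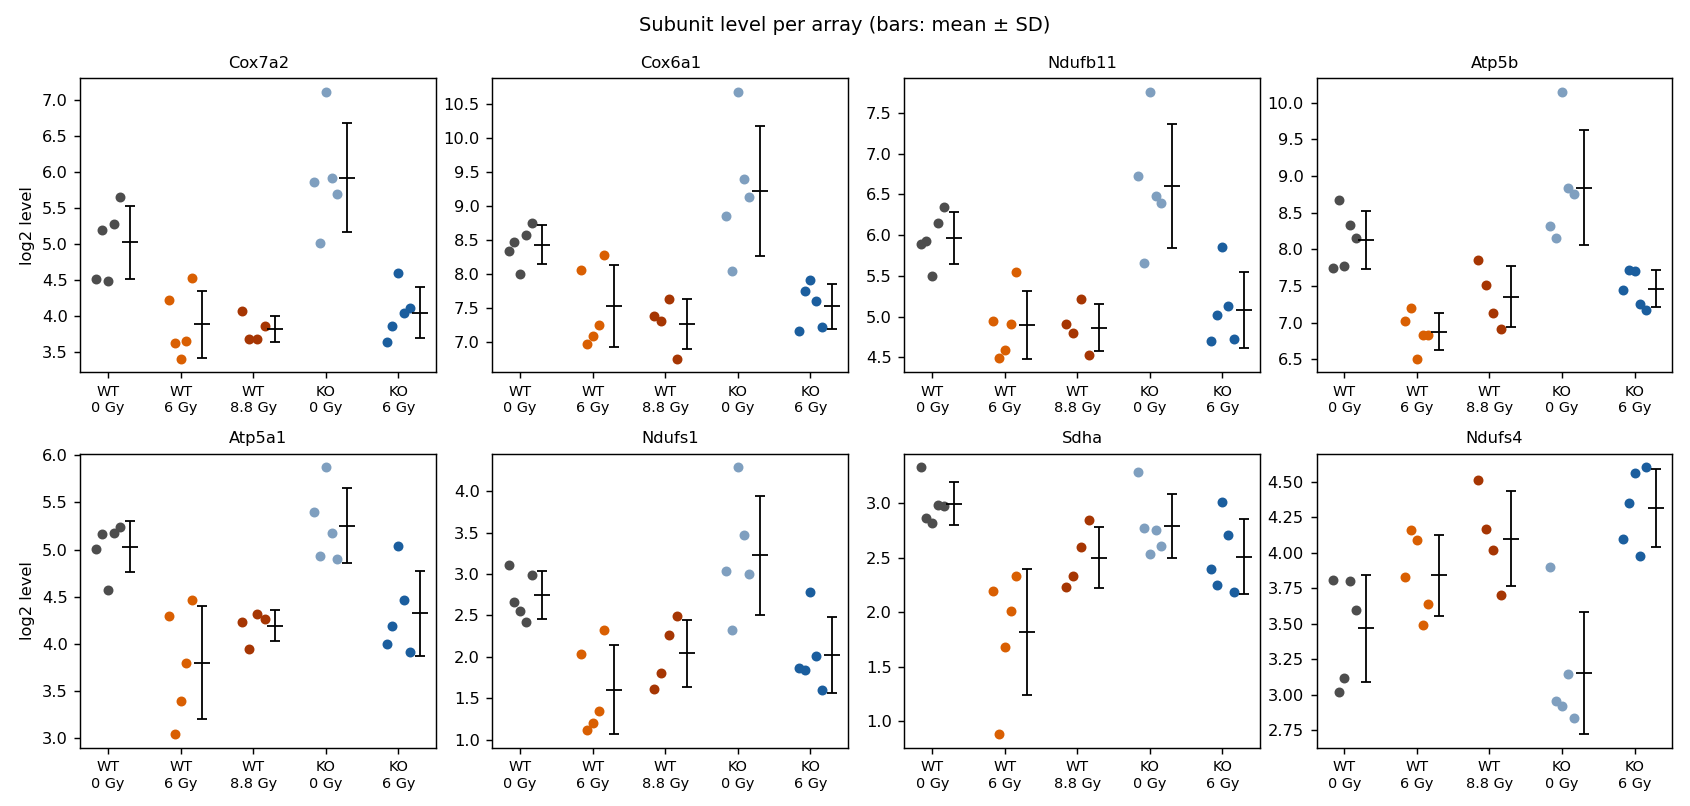
Log2 level of 8 subunits in each of the 24 arrays, by genotype and dose, with mean and SD beside the points. Cox7a2 and Cox6a1 lie lowest in the irradiated groups of both genotypes, although the drop of Cox6a1 in wild type at 6 Gy missed the threshold, Sdha is lowest in wild type at 6 Gy, and Ndufs4 is highest in irradiated knockout arrays, between 3.98 and 4.60.

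Paralogues of complex IV differed in pattern. The heart and muscle forms Cox6a2 and Cox7a1 were high on single arrays: Cox6a2 was 4.21 on wild-type 6 Gy replicate 1, 3.21 and 2.08 on wild-type 8.8 Gy replicates 3 and 4, and 5.98 on knockout 6 Gy replicate 3, and between -2.02 and 0.90 on the other 20. Cox7a1 was 3.19, 2.57, 2.27 and 5.36 on the same 4 arrays, and 2.52 on knockout 0 Gy replicate 3. Cox8b, not counted as measured, was 2.49, 1.81, 1.43 and 4.52 on those 4 arrays and at most -0.66 elsewhere. These are the 4 arrays with the highest heart muscle markers given above. In a fit with group means and the hepatocyte and heart marker means as covariates, the slope on the heart mean was positive for Cox6a2 (1.99 log2 per SD, adjusted p = 4.47e-07) and Cox7a1 (1.23, adjusted p = 1.64e-07), and for 0 of the other 77 members at an adjusted p under 0.05, against 0.253% of all genes. With the scaling used here and without covariates, neither gene was called in any comparison. Their group differences in wild type at 6 Gy were 1.71 (SE 1.17) for Cox6a2 and 1.28 (SE 0.73) for Cox7a1. Calls of both genes with covariates are given below. Of the other pairs, Cox4i2, Cox6b1, Cox6b2, Cox7a2l and Cox8a were not called without covariates either. The same held for Ndufa4, which is now counted with complex IV and here stayed with complex I by its name.

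**Figure D3:**
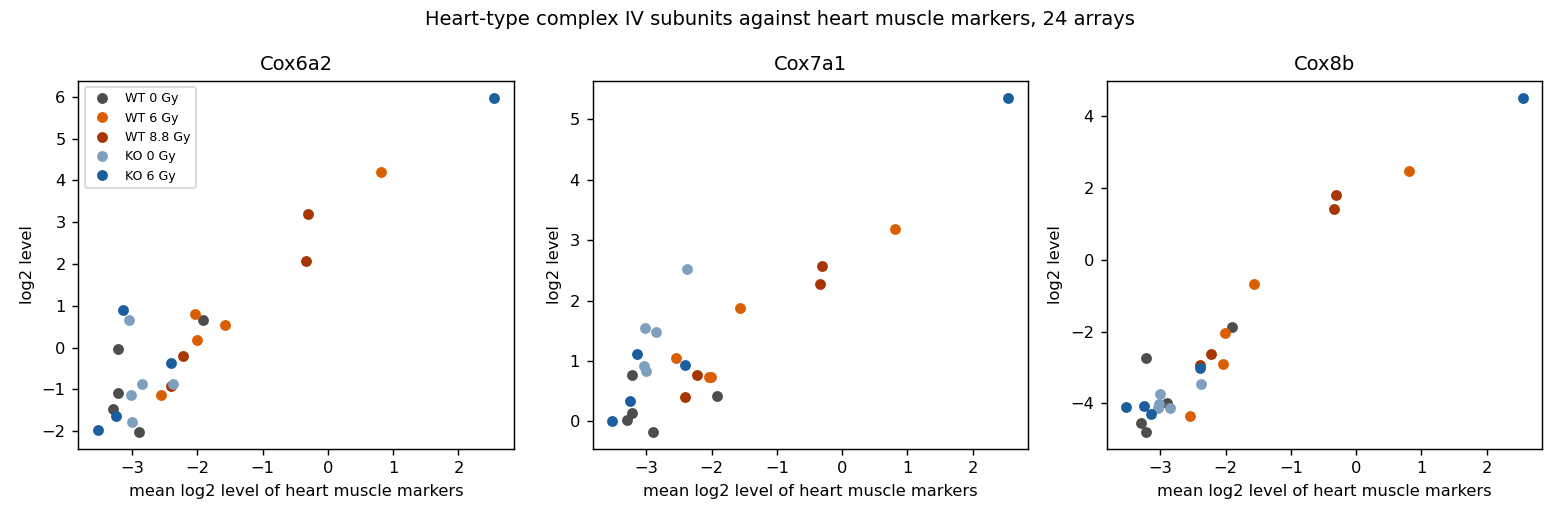
Log2 level of the heart and muscle forms Cox6a2, Cox7a1 and Cox8b (vertical) against the mean log2 level of 19 heart muscle markers (horizontal) in 24 arrays, coloured by group. The 4 arrays farthest to the right, led by knockout 6 Gy replicate 3 at 2.55, carry the highest Cox6a2 and Cox8b levels.

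Complex V, the ATP synthase, had 5 of 15 members called lower in wild type at 6 Gy, 1 at 8.8 Gy and 5 in the knockout, with medians of -0.58, -0.49 and -0.50. Atp5b, the catalytic beta subunit, was 7.74, 8.68, 7.77, 8.33 and 8.15 in wild-type 0 Gy and 7.03, 7.20, 6.51, 6.83 and 6.83 in wild-type 6 Gy arrays. The groups did not overlap and the fall was 1.25 (2.38-fold, SE 0.30, adjusted p = 0.00526). Its level in the knockout was 8.32, 8.15, 10.15, 8.84 and 8.75 at 0 Gy and 7.45, 7.72, 7.71, 7.25 and 7.18 at 6 Gy, again without overlap (-1.38, SE 0.30, adjusted p = 0.00205). Atp5a1, the alpha subunit, fell in all 3 responses, by 1.23 (SE 0.27, adjusted p = 0.00325), 0.84 (SE 0.29, adjusted p = 0.0483) and 0.93 (SE 0.27, adjusted p = 0.0153). Atp5h of the peripheral stalk, and Atp5k and Atp5l of the membrane part, were called lower at 6 Gy in both genotypes, with differences from -1.24 to -0.81. Atp5l rests on a probe that the array files place on the X chromosome, whereas the other 5 probes are to its RefSeq transcript; all 6 passed in the knockout, but in wild type the other 5 had adjusted p of 0.0528 to 0.0789. The wild-type call of Atp5l was kept in 14 of 24 fits that left out 1 array (adjusted p up to 0.108). The c-ring genes Atp5g1, Atp5g2 and Atp5g3, which encode the same mature protein, were not called by their brightest probes without covariates. A second probe of Atp5g2, fitted on its own, passed at 8.8 Gy (-1.24, SE 0.35, limma adjusted p = 0.0168), where the brighter gave -0.42. The gamma subunit Atp5c1 was 3.28, 3.79, 4.85 and -0.66 on the wild-type 8.8 Gy arrays; a second probe gave -0.72 (SE 0.38) where the brighter gave -1.79 (SE 0.76), and neither passed.

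Groups that did not overlap were counted as well. In wild type at 6 Gy every irradiated array lay below every sham array for 8 members (10.1%), against 9.6% of all genes. At 8.8 Gy this held for 6 members (7.59% against 11.4%), and for the knockout for 5 (6.33% against 6.01%). Every irradiated array lay above every sham array for 0 members at 6 Gy in wild type (8.97% of all genes), for Atp5j2 at 8.8 Gy (6.69%) and for Ndufs4 in the knockout (9.33%). The probes of Atp5j2 went opposite ways: the brighter differed by 0.61 and 0.81 in the wild-type responses and the other, to the same transcript, by -0.62 and -0.78, and none of these passed. In the knockout the other probe passed (-1.04, SE 0.32, limma adjusted p = 0.0199) and the brighter did not (-0.85). With each probe fitted on its own, 27 members had several measured probes, and in each response 3 of these disagreed in call. In wild type at 6 Gy another probe of Ndufv3 passed as higher (1.07, SE 0.34, limma adjusted p = 0.0267), where its brightest gave -0.45.

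No member passed the test between genotypes or between doses with the scaling used here, but other settings gave calls. Normexp background called 45 members higher in knockout 6 Gy than in wild-type 8.8 Gy arrays (44.1% of all genes called) and 16 lower at 8.8 than at 6 Gy in wild type (16.5%). Median centring called 18 higher in the knockout at 6 Gy (29.2%), 2 between doses (12.9%) and 4 for the difference of responses (30.3%), and the marker covariates described below added Sdha and Cox7a1 between genotypes. Between knockout and wild type at 0 Gy 0 of 79 members were called by limma, with 5 at an unadjusted p under 0.05, against 0.675% of all genes called, and the median difference was 0.14. Cox7a2 (0.90, SE 0.32, adjusted p = 0.136) and Atp5b (0.71, SE 0.30, adjusted p = 0.193) had the smallest p. Wild-type and knockout 0 Gy arrays shared no scan day and no slide, so every difference between genotypes at 0 Gy is also one between batches. Between knockout and wild type at 6 Gy 0 members were called and 1, Sdha (0.69, SE 0.24, adjusted p = 0.103), had an unadjusted p under 0.05, against 0.874% of all genes called. At the equally lethal doses, knockout 6 Gy against wild-type 8.8 Gy, 0 members and 0 genes were called, and the median difference was 0.14. Between 8.8 and 6 Gy in wild type 0 members and 0 genes were called, with a median of -0.01, and Sdha again had the smallest p (0.68, SE 0.26, adjusted p = 0.186). For the difference between the knockout and wild-type responses at 6 Gy 0 members passed, with 4 at an unadjusted p under 0.05, against 6.05% of all genes called. The median SE of a member's difference was 0.39 between groups of 5 and 0.55 for the difference of responses, so a missed threshold does not show that the groups responded alike.

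The mean level of each complex per array shows how much single animals differed. Complex I was 3.76 ± 0.49 (SD, n = 5) in wild-type 0 Gy, 3.39 ± 0.66 (n = 5) in wild-type 6 Gy, 3.31 ± 0.48 (n = 4) in wild-type 8.8 Gy, 3.75 ± 0.46 (n = 5) in knockout 0 Gy and 3.47 ± 0.64 (n = 5) in knockout 6 Gy arrays. Complex V was 5.15 ± 0.30, 4.57 ± 0.45, 4.59 ± 0.32, 5.35 ± 0.40 and 4.75 ± 0.48 in the same order. Within a group the arrays spanned up to 1.66 for complex I, more than the difference between groups. In each of the 5 groups the array with the highest complex I level had a hepatocyte marker mean above 6.

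**Figure D4:**
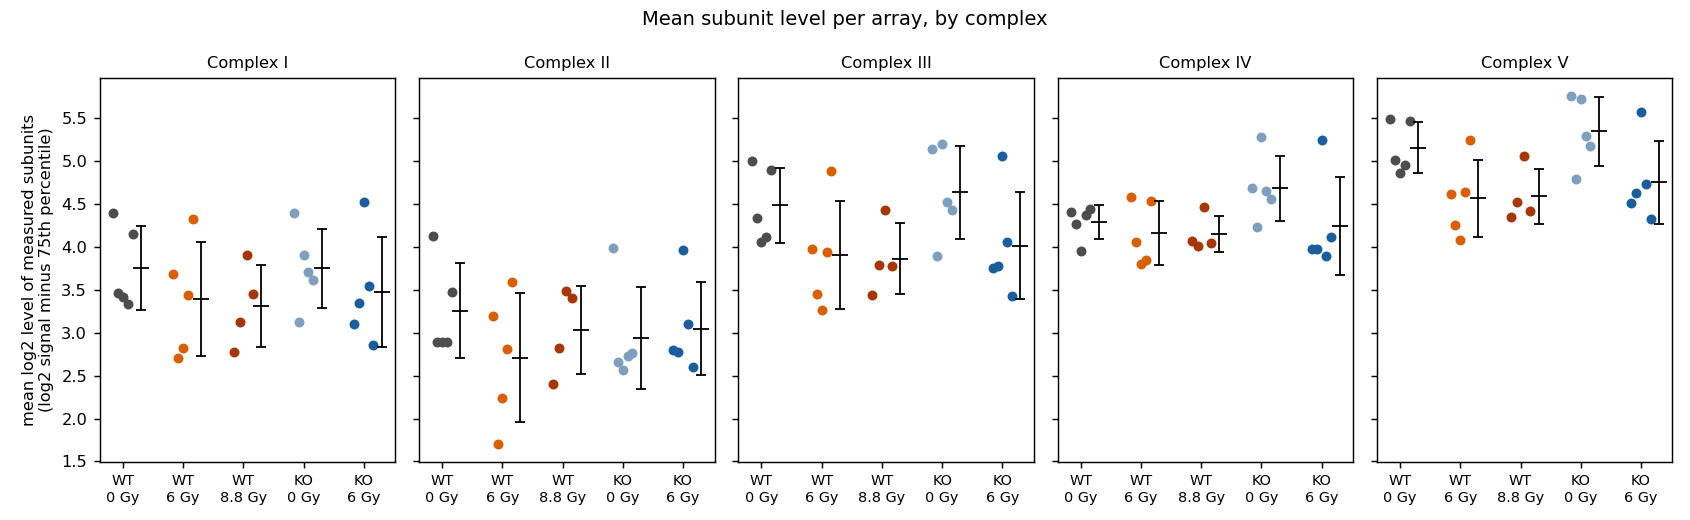
Mean log2 level of the measured subunits of complexes I to V in each array, by group, with the group mean and SD beside the points. Groups overlap in every complex, and the spread within a group, up to 1.66 for complex I, exceeds the shift between sham and irradiated means.

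Hepatocyte markers moved with much of the pathway inside the groups. With group means and the hepatocyte and heart marker means in 1 fit, 41 of 79 members (51.9%) had a positive slope on the hepatocyte mean and 1 a negative one, whereas over all genes tested 1246 of 13038 were positive and 2752 negative. Positive slopes were found for 24 of 37 members of complex I, 3 of 4 of complex II, 5 of 8 of complex III, 7 of 15 of complex V and 2 of 15 of complex IV. Ndufv1 had a slope of 0.70 log2 per SD of the marker mean (adjusted p = 5.27e-05). Of the 16 members called in any response, 1 (Uqcrc2) had such a slope, against 40 of the 63 that were not called. Those calls came from the fit without covariates, where variation along the hepatocyte mean counts as spread and makes a call less likely. The split therefore does not show that the called members are free of liver signal. With these covariates 17 members were called in wild type at 6 Gy (30.5% of all genes), 42 at 8.8 Gy (25% of all genes) and 33 in the knockout (26.7% of all genes). All were lower except 1 in the knockout, and 21 of the 42 at 8.8 Gy were of complex I.

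Erythroid markers fell with the subunits. Their mean level was 4.46 ± 0.65 (SD, n = 5) in wild-type 0 Gy, 3.19 ± 0.39 (n = 5) at 6 Gy and 3.76 ± 0.95 (n = 4) at 8.8 Gy, and 5.24 ± 0.77 (n = 5) in knockout 0 Gy and 3.92 ± 0.19 (n = 5) in knockout 6 Gy arrays. Of the 27 erythroid markers 15, 5 and 17 were called lower in the 3 responses, and 1, 2 and 2 higher. When this mean was added as a covariate, 10 of the 16 called members had a positive slope on it (Atp5b, Atp5h, Atp5k, Atp5l, Cox6a1, Cox6c, Cox7a2, Ndufa11, Ndufb11 and Uqcrh), and 17 of all 79 (21.5%) did, against 13.9% of all genes. The positive slopes were those of 5 of 37 members of complex I, 0 of 4 of complex II, 3 of 8 of complex III, 5 of 15 of complex IV and 4 of 15 of complex V. Another 6 members, 5 of them in complex I, had a negative slope. Without knockout 0 Gy replicate 3, which had the highest erythroid mean (6.50) and the highest Cox7a2, Cox6a1 and Atp5b levels, 3 of the 16 and 7 of the 79 had a positive slope at that threshold, and over all genes tested the number fell from 1818 to 554. With all 3 covariates 23, 48 and 28 members were called in the 3 responses, 1 of them higher in each, while 43%, 41.9% and 24.8% of all genes were. They were largely other members: of those called without covariates 4 of 11, 5 of 5 and 7 of 14 were called here. In wild type at 6 Gy the calls of Atp5b, Atp5h, Atp5k, Atp5l, Cox6c, Cox7a2 and Ndufb11 were lost, with Atp5l at -0.05. In the knockout those of Ndufa11, Uqcrh, Cox6c, Atp5b, Atp5h, Atp5k and Atp5l were lost, with Cox6c at -0.09. Between genotypes, 1 member was called at 0 Gy with the hepatocyte and heart covariates (Cox7a1, 1.13, SE 0.28, adjusted p = 0.0446; 1.51% of all genes) and 0 with erythroid markers added (0.023% of all genes). At 6 Gy Sdha was called higher in the knockout with the first pair of covariates (0.67, SE 0.21, adjusted p = 0.0381; 12% of all genes) and with all 3 (0.82, SE 0.22, adjusted p = 0.0134; 17.9% of all genes). Its difference between the 6 Gy responses passed with all 3 (0.82, SE 0.28, adjusted p = 0.0399; 21.2% of all genes), whereas 0 members passed with the first pair (11.4% of all genes). Between 8.8 and 6 Gy in wild type 0 members were called with either set, against 4.39% and 8.44% of all genes. Other blood cells moved too: 13, 15 and 15 of 18 T-cell markers and 9, 10 and 10 of 12 B-cell markers were called lower. Platelet markers went the other way, with 1, 11 and 10 of 19 called higher (medians 0.60, 1.44 and 1.22) and 0 lower, and of 18 neutrophil markers 6, 6 and 4 were called higher and 0, 0 and 2 lower. Of all genes 10.9%, 9.04% and 10.5% were called lower in the 3 responses, and 15.5%, 7.05% and 12.4% higher. The part of lymphocytes, platelets and neutrophils in the members' results was not tested.

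**Figure D5:**
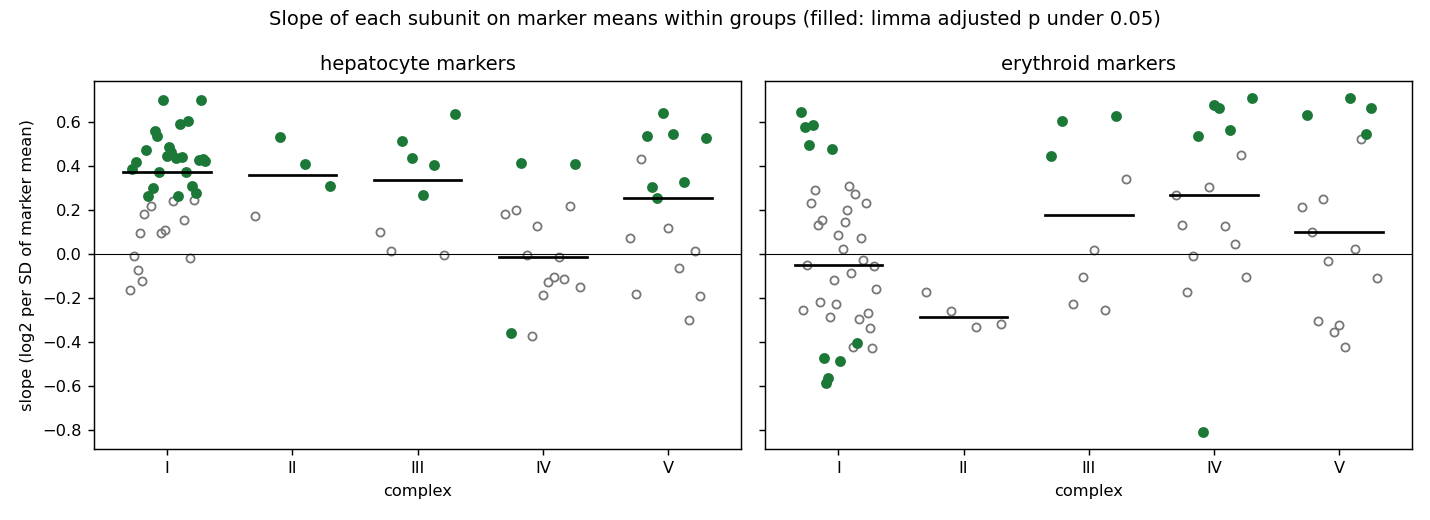
Slope of each subunit (points) on the mean level of hepatocyte markers (left) and erythroid markers (right), in log2 per SD of the marker mean with group means in the fit, by complex; filled points passed an adjusted p under 0.05 and lines are medians. Complex I lies mostly above 0 for hepatocyte markers, with 24 filled points of 37, and complex IV does not.

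Other genes around the pathway were taken from lists fixed for description. Of 37 measured assembly factors, 4 were called higher in wild type at 6 Gy and 0 lower, and 4 higher and 1 lower in the knockout. Of all genes 15.5% and 12.4% were called higher in these 2 responses, and 10.9% and 10.5% lower. Cox15, which makes the heme of complex IV, rose by 1.49 (SE 0.30, adjusted p = 0.00211) in wild type at 6 Gy, and its knockout response was lower by 2.01 (SE 0.43, adjusted p = 0.0251 for the difference). Sco1, a copper carrier for complex IV, rose by 2.14 (SE 0.74, adjusted p = 0.0367) in that response. Coa5 rose by 1.33 (SE 0.38, adjusted p = 0.0196) at 8.8 Gy and by 1.08 (SE 0.36, adjusted p = 0.0309) in the knockout, and Sdhaf2, which attaches the flavin of Sdha, rose by 0.98 (SE 0.24, adjusted p = 0.00528) there. Atpaf2, an assembly factor of complex V, was lower in the knockout at 0 Gy (-0.93, SE 0.18, adjusted p = 0.0272), where genotypes also differ in scan day and slide. Ttc19, of complex III assembly, also responded differently in the knockout (-1.95, SE 0.43, adjusted p = 0.0251).

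Of 17 genes of the citric acid cycle and pyruvate dehydrogenase, 3, 1 and 1 were called lower in the 3 responses and 0 higher. Of all genes 10.9%, 9.04% and 10.5% were called lower. Ogdh, the E1 subunit of 2-oxoglutarate dehydrogenase, was the called one in each, falling by 1.27 (SE 0.24, adjusted p = 0.00126) and 0.89 (SE 0.26, adjusted p = 0.0206) in wild type and by 1.73 (SE 0.24, adjusted p = 4.41e-05) in the knockout. Pdha1, of pyruvate dehydrogenase, fell by 1.02 (SE 0.24, adjusted p = 0.00551) in wild type at 6 Gy, and its response differed between genotypes (1.30, SE 0.35, adjusted p = 0.0374). Of 14 regulators of mitochondrial biogenesis, 4 were called lower in wild type at 6 Gy, among them Gabpa, the DNA-binding part of GABP (-1.22, SE 0.29, adjusted p = 0.00562), and Tfam, which packages mitochondrial DNA (-1.01, SE 0.32, adjusted p = 0.0243). At 8.8 Gy 1 was lower, the DNA polymerase Polg (-1.0, SE 0.25, adjusted p = 0.00990), and in the knockout 0. In glycolysis 2, 2 and 6 of 19 genes were called higher, beside 15.5%, 7.05% and 12.4% of all genes. The counts of these lists were not tested against the shares of all genes. Ldhb rose by 1.16 (SE 0.33, adjusted p = 0.0138), 1.54 (SE 0.35, adjusted p = 0.00494) and 2.37 (SE 0.33, adjusted p = 3.84e-05), and Hk3, a hexokinase, by 1.31 (SE 0.30, adjusted p = 0.00479) in wild type at 6 Gy and 1.11 (SE 0.32, adjusted p = 0.0224) at 8.8 Gy. Hk2 rose by 1.48 (SE 0.43, adjusted p = 0.0158) in the knockout, and 1 glycolysis gene was lower at 8.8 Gy. Among 13 electron carriers and exchangers Ucp2 fell by 1.20 (SE 0.37, adjusted p = 0.0202) in wild type at 6 Gy and Vdac3 rose by 0.66 (SE 0.19, adjusted p = 0.0159) in the knockout.

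The 13 subunits encoded in mitochondrial DNA were listed after the data were seen. Their median differences were -0.31, 0.28 and 0.14 in the 3 responses. In wild type at 6 Gy, where 10.9% of all genes were called lower, 1 of them was, mt-COX1 (-0.72, SE 0.25, adjusted p = 0.0397), and 0 in the other responses. It was 9.55, 9.08, 9.11, 9.42 and 9.80 at 0 Gy and 9.02, 8.80, 8.79, 8.18 and 8.59 at 6 Gy, without overlap.

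Batch and the doubtful arrays changed the counts. With slide as a fixed block 0 members were called in either wild-type response, beside 0% of all genes in each. With scan day it was 0 in each, beside 0.115% and 0.176% of all genes. So few calls over all genes make these counts no result about the members. The medians in the 3 responses were -0.91, -1.37 and -0.97 with slide and -0.54, -0.54 and -0.97 with scan day. These fits link sham and irradiated wild-type arrays only through knockout arrays. With slide as a random block (consensus correlation 0.199) 10, 4 and 12 members were called, beside 22.6%, 12.9% and 19.9% of all genes. The knockout value of -0.97 is 1 estimate under both fixed blocks: it comes from scan day 1 and a single slide, which held the only knockout arrays of both doses together, 1 irradiated and 2 sham, so it has no replicate of the irradiated arm. The knockout calls given above come from the fit without blocks, and neither fixed block backs any of them. Among the irradiated arrays of scan day 3 the medians were 0.27 for knockout against wild type at 6 Gy, 0.32 at the equally lethal doses and -0.01 between the wild-type doses. In each of these 0 members were called, beside 0.00767%, 0% and 0% of all genes. Without both near-equal arrays 9 members were called in wild type at 6 Gy, 0 at 8.8 Gy and 9 in the knockout, of which 1 was higher. Of all genes 24.5%, 8.84% and 18.4% were called. Leaving out wild-type 8.8 Gy replicate 4 too gave 9, 0 and 11 (medians -0.40, -0.44 and -0.28), beside 24%, 2.43% and 18.3% of all genes. It gave 0 between genotypes at 0 Gy and at 6 Gy, at the equally lethal doses and between doses. Of all genes 0.13%, 3.8%, 0.00767% and 0% were called in these.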

How the data were processed

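The intensities in the deposited scanner files are linear spot signals that, per the file headers, were extracted and background-subtracted with Agilent Feature Extraction 11.5.1.1 (11.5.1 in the submitters' processing notes) on a mouse design annotated to mm9. The authors' deposited table holds log2 values for 10214 probes, 10189 of them matched to scanner probes. To within 0.01, 99.5% of its cells were log2 processed signal shifted by an array-wide constant, so scale and direction are known; the rule behind the constants stays unknown. Its column medians were 7.94, 7.68, 7.73, 7.66 and 7.80 (wild type 0 Gy), 7.75, 7.86, 7.76, 7.65 and 7.70 (wild type 6 Gy), 7.71, 7.85, 8.04 and 7.97 (wild type 8.8 Gy), 8.09, 7.66, 8.01, 7.69 and 7.63 (knockout 0 Gy) and 7.83, 7.70, 8.06, 7.88 and 7.86 (knockout 6 Gy).

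Control spots and 0.432% of spot values with an outlier mark were left out. Each array's 75th percentile was subtracted from log2 processed signal, spots of a probe were averaged, and the brightest probe stood for a gene. Probes were named through RefSeq accessions (GRCm38.p6; 27508) or the array file (5712), and 6209 stayed unnamed. A gene was tested if well above background on 4 arrays of a group, which left 13038. limma 3.58.1 (R 4.3.3) fitted 5 group means over 24 arrays; all adjusted p are two-sided, Benjamini-Hochberg over those genes within each of 8 comparisons, called under 0.05, and SE is the moderated standard error. On simulated data with the spread of each gene but independent genes, in wild type at 6 Gy over 13038 genes, it recovered 29 of 100 genes changed by 1 log2 and 82 of 100 changed by 2, with 8 false calls. The simulation held no variation shared between genes, such as that along marker means, slides or scan days. It therefore does not give the rate of false calls in these data. The number of arrays limits the precision.

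The members, gene lists and tests were chosen with earlier results of these data known. Named members were the called ones (up to 6 in each direction per comparison, or the 2 of smallest p), fixed core subunits and paralogues, and in other lists the 2 called genes of largest change; others were named after their values were seen. The values of 1 of these core subunits are not reported here. Alternatives were other backgrounds, scalings, filters, blocks and covariates, the authors' table, and each array left out. Figures used matplotlib 3.10.9 in Python 3.11.15.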

Additional observations from a re-analysis of the deposited data

Results flagged for a closer look

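Among 199 sets of 4 or 5 arrays of 1 group, over complex means and named members, 11 had 1 array far from the rest (gap to the nearest array as a share of the group's range above Dixon's limit); chance alone flags about 1 set in 20. In knockout 0 Gy, replicate 1 was high for the complex II mean (3.99 against 2.76 for the next array, share 0.862), Atp5c1 (5.49 against 4.42, 0.804), Ndufs4 (3.90 against 3.15, 0.712), Sdhb (5.60 against 4.14, 0.815) and Uqcrfs1 (3.71 against 2.47, 0.828); it had the highest hepatocyte marker mean of its group, 6.58. In the same group replicate 3, highest in erythroid markers, was high for Atp5l (9.23 against 8.07, 0.723). In knockout 6 Gy, replicate 3, highest in heart markers, was high for the complex IV mean (5.25 against 4.11, 0.839), Cox7a1 (5.36 against 1.11, 0.795) and Ndufa4 (5.73 against 4.86, 0.732). In wild type, 8.8 Gy replicate 3 was high for the complex IV mean (4.47 against 4.07, 0.877) and 6 Gy replicate 2 for Atp5l (7.14 against 6.75, 0.75).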

How the results depend on the processing

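In this paragraph the 3 responses are wild type at 6 Gy, wild type at 8.8 Gy and knockout at 6 Gy against their sham groups. Of 331 counts of called members under alternatives 276 stayed within 1.5 times the count given above, where 0 against 0 also counted as staying. Of 332 median differences 318 moved by less than the spread between replicates. That spread was the mean SD of the members' mean level in the groups compared, with SDs of 0.37 to 0.58. In both 6 Gy responses it exceeded the size of the median itself (-0.40 and -0.35), so a median of 0 would count as unmoved there. Leaving out 1 array at a time gave 7 to 13, 0 to 10 and 9 to 19 called members in the 3 responses, 0 in the comparisons of genotypes and doses, and 0 to 1 for the difference of responses. The 8.8 Gy count was 0 without wild-type 0 Gy replicate 5 and without wild-type 8.8 Gy replicate 2, 1 without wild-type 8.8 Gy replicate 4, 2 without wild-type 0 Gy replicate 2 or 4, 3 without wild-type 6 Gy replicate 3 or 4, knockout 0 Gy replicate 1, 4 or 5 or knockout 6 Gy replicate 1, 2 or 4, and 10 without knockout 0 Gy replicate 3; the knockout count was 9 without knockout 0 Gy replicate 3, and the 6 Gy count 7 without wild-type 0 Gy replicate 2 or 5 or wild-type 6 Gy replicate 1 or 3. Normexp background gave 4, 46 and 4 called members, with medians of -1.24 at 8.8 Gy and 0.17 in the knockout, 45 called (median 1.11) for knockout 6 Gy against wild type 8.8 Gy, 16 (median -0.95) between the wild-type doses, and a median of 0.44 for the difference of responses; it left array medians of 6.19 to 9.74 in log2. Centring on the median, which moved the median of all genes at 6 Gy to -0.74, gave 35 (median -1.18) and 11 in the wild-type responses, 18 (median 0.77) between genotypes at 6 Gy, 2 (median 0.45) between doses and 4 (median 0.74) for the difference of responses. At 8.8 Gy the percentile over probes detected on all arrays gave 8, quantile normalization 2 and no filter 1. No filter gave 2 for the difference of responses. The stricter list, with 78 measured members, gave 11, 5 and 14 in the 3 responses. Slide as a fixed block gave 0 and 0 in the wild-type responses, beside 0% of all genes in each (medians -0.91, -1.37 and -0.97 in the 3 responses). Scan day gave 0 and 0, beside 0.115% and 0.176% of all genes. The knockout median of -0.97 was 1 estimate under slide, scan day and scan day 1 alone, from 1 irradiated and 2 sham arrays. Neither fixed block backs any of the knockout calls. With the replicate number as a block, 9, 2 and 12 were called; the numbers do not pair the mice, since over 46 pairs of same-numbered arrays the deviations correlated at -0.77 to 0.75 (median -0.04), and 3 of 24 arrays correlated best with their own number. Without both near-equal arrays 9, 0 and 9 were called, and without wild-type 8.8 Gy replicate 4 as well, chosen after seeing the data, 9, 0 and 11. Hepatocyte and heart markers as covariates gave 17, 42 and 33, and 1 each for genotype at 0 and at 6 Gy; adding erythroid markers, chosen after seeing the data, gave 23, 48 and 28, and 1 each for genotype at 6 Gy and the difference of responses. Under those 3 covariates Cox6a2 (-1.51) and Cox6b2 (1.01) in wild type at 6 Gy and Ndufv1 (-0.88) in the knockout turned direction and were called. The cause of each of these changes was not tested.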
